A study of Mus musculus with 6 samples.

Results

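The sites described here are the estrogen receptor alpha (ERα) peaks around Fos, Myc, Cdkn1a and Vegfa, 4 genes that respond early when the uterus is stimulated to grow. Members are the called peaks whose midpoint lies in a fixed window, made of each gene with about 100 kb on either side. The windows, in mouse build mm9, are chr12:86714000-86919000 for Fos, chr15:61716000-61922000 for Myc, chr17:29127000-29338000 for Cdkn1a and chr17:46053000-46270000 for Vegfa. They hold 264 of the 154923 peaks in the 6 deposited lists. Peaks of different lists that overlapped by at least 1 bp were merged into a region, which gave 105 regions in the windows out of 65146 in the genome. The outermost regions inside the windows lay 0.552 to 28.5 kb from an edge, and the first regions outside lay 2.29 to 160 kb from one.

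The peaks come from chromatin immunoprecipitation and sequencing (ChIP-seq) of whole uterus with an ERα antibody. All mice were C57BL/6J females, aged 12 weeks and ovariectomized, which removes the main source of estrogen. One genotype was wild type (WT in the titles). The other, from the same litters, carried a mutant ERα whose activation function 2 (AF-2) is altered (Af2KI in the titles). Each genotype received ICI (fulvestrant, ICI182780) at 2 mg/kg, tamoxifen (Tam) at 2 mg/kg, or 50 µl of the dimethyl sulfoxide (DMSO) vehicle (Veh), by intraperitoneal injection, and uteri were taken 1 h later. Every title also holds the unexplained code E1h, so an estrogen given to all groups cannot be told apart from a plain time code. Each group was 1 library from a pool of 6 mice. There is therefore no spread between replicates, and every comparison below is between libraries. Whole uterus mixes epithelium, stroma and muscle, so a peak cannot be assigned to a cell type.

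ERα is a nuclear receptor that binds DNA at estrogen response elements (EREs), and is also recruited indirectly through factors such as AP-1 and Sp1. AF-2 is the surface of its ligand-binding domain that takes up coactivators once an activating ligand is bound. Fos encodes a subunit of AP-1, and Myc encodes a transcription factor that drives growth and cell division. Cdkn1a encodes p21, an inhibitor of cyclin-dependent kinases, and Vegfa encodes a growth factor for blood vessels that also raises their permeability. Estrogen is known for inducing Fos, Myc and Vegfa within hours in the rodent uterus.

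Regions called in all 4 ligand lists lay close to the start of Fos and of Vegfa, so those promoters are shown. They come from the RefSeq promoter table of build GRCm38.p6, which lists 1 start for Fos and 2 for Vegfa. The 250 bases before the Fos start and before the upstream Vegfa start are given 5′ to 3′. They lie at chr12:85473640-85473889 on the plus strand for Fos and at chr17:46032378-46032627 on the minus strand for Vegfa, and these positions cannot be set beside the mm9 ones. Capitals mark matches to the GC box GGGCGG, to which Sp1 binds, on either strand.

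Fos: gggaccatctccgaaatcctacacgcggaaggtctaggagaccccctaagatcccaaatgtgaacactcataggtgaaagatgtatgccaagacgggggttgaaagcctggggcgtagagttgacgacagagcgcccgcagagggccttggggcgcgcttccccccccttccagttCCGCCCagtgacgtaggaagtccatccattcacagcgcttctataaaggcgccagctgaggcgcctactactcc

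Vegfa: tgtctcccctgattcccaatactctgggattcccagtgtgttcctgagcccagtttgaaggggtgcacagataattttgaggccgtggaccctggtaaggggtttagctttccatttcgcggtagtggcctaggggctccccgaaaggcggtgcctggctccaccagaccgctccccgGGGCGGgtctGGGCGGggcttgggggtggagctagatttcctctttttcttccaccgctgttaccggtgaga

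The Fos promoter had 1 GC box, whose first base lay 74 bases before the start, and the Vegfa promoter had 2, at 72 and 62 bases before it. A GC box was found in 32.7% of all 32817 promoter windows of that length. Neither promoter held the full ERE GGTCANNNTGACC, a single arm of it, GGTCA, or the AP-1 site TGANTCA on either strand. The single arm, which is part of the full ERE, occurred in 35.2% of promoter windows, the full ERE in 0.0640% and the AP-1 site in 6.75%. The second Vegfa start, downstream of the one shown, had 1 GC box, at 158 bases before it, and no match to the other motifs. For Cdkn1a the table also lists 2 starts. The upstream one had no match to any of these 4 motifs, and the other had 2 GC boxes, at 104 and 46 bases before it. A match describes letters only, and no sequence under the peaks themselves was read.

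ERα was called at many more positions around these genes with either ligand than with vehicle, in both genotypes. Summed over the windows, the wild-type libraries held 4 vehicle peaks, 46 ICI peaks and 69 tamoxifen peaks. Those of the AF-2 mutant held 2 vehicle peaks, 77 ICI peaks and 66 tamoxifen peaks. In the wild type, ICI gave 11.5 times as many peaks as vehicle (95% interval 4.20 to 44.0) and tamoxifen 17.2 times as many (6.44 to 65.1). In the mutant these ratios were 38.5 (10.3 to 324) for ICI and 33.0 (8.78 to 278) for tamoxifen. The whole lists gave ratios of 7.13 (ICI) and 10.1 (tamoxifen) for wild-type mice and of 9.12 and 7.27 for mutant mice. The whole-list ratio lay outside the window interval in both mutant comparisons and inside it in both wild-type ones. Intervals are exact, conditional on the total, and cover counting error only. The mutant ratios rest on 2 vehicle peaks, and without the Myc window, which holds 1 of them, they were 69.0 for ICI and 58.0 for tamoxifen. Without the Fos window they fell to 27.0 and 24.0, and without the Cdkn1a window to 28.5 and 24.5. No interval was given for these, so whether the whole-list ratio stays outside it was not tested. The lists carry no depth or peak height, so their part in these ratios was not tested.

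**Figure D1:**
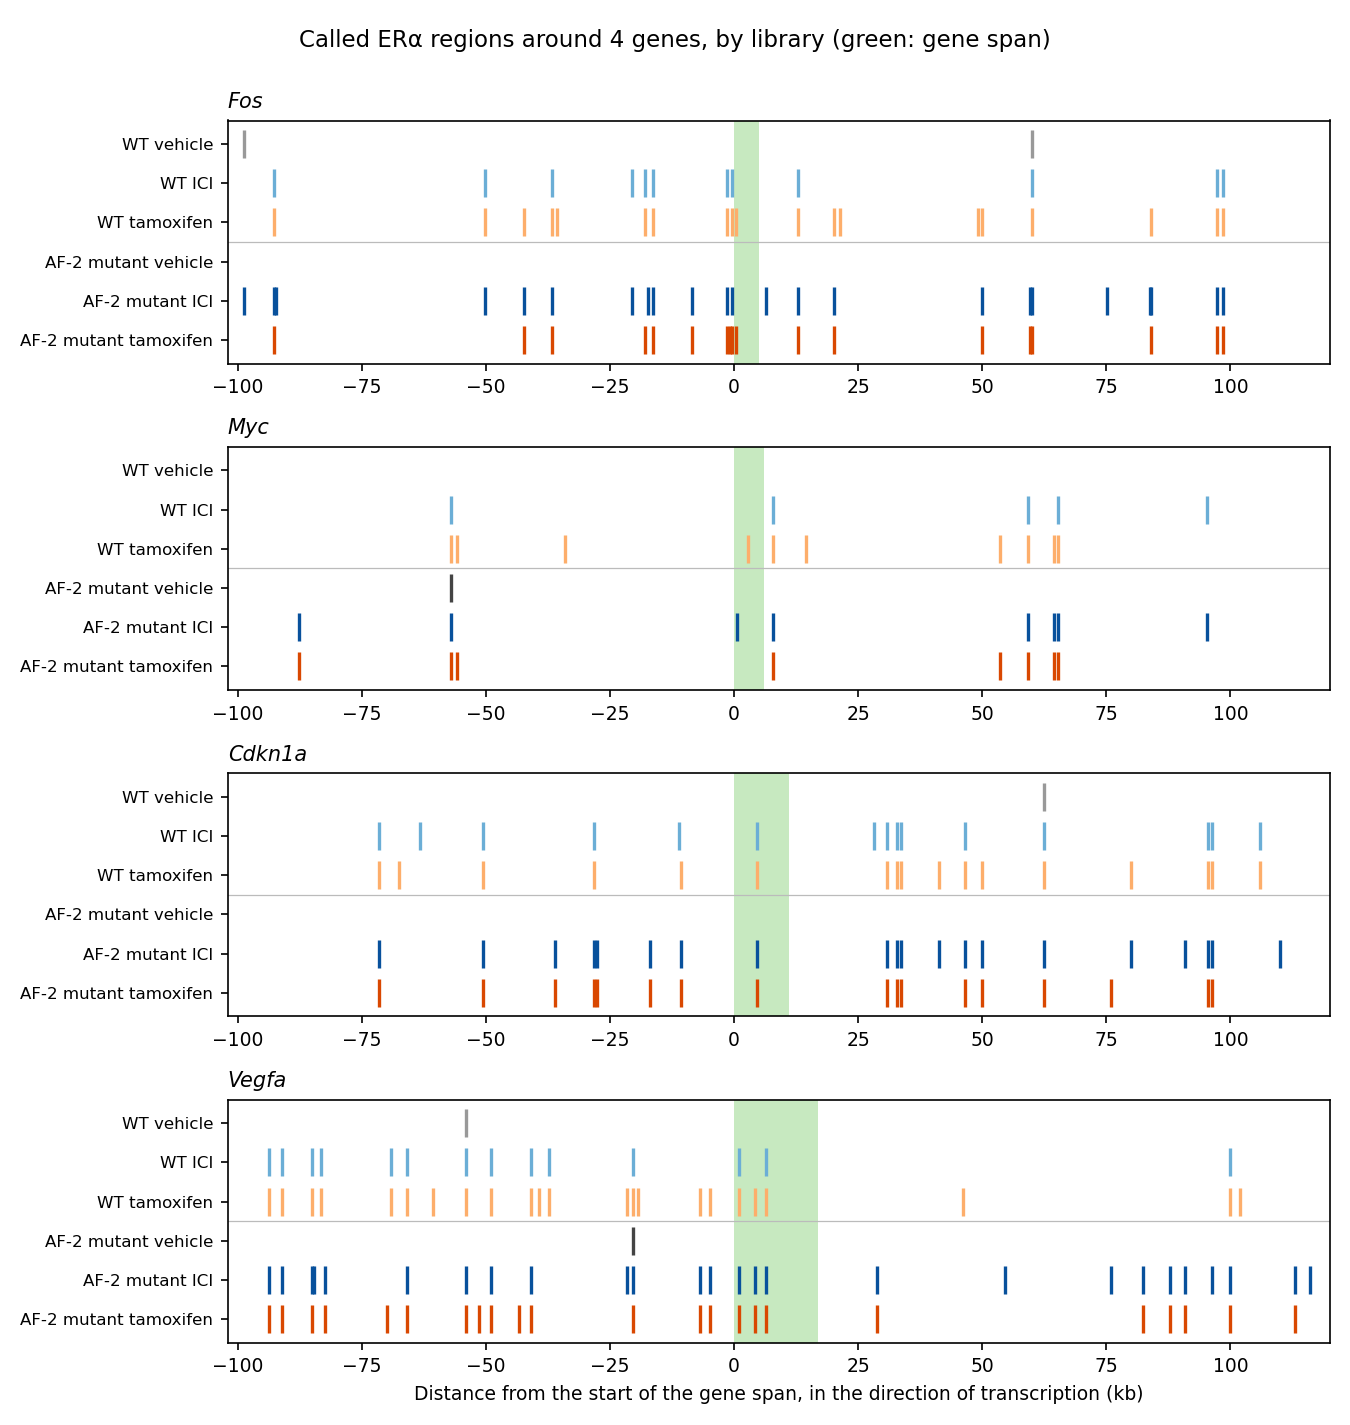
Position of every called ERα region around the 4 genes, as the distance in kb of its midpoint from the start of the gene span in the direction of transcription. Each row is 1 library, each tick 1 region, and green marks the gene span. Vehicle rows hold 0 to 2 regions each, while ligand rows hold 5 to 26.

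Around Vegfa, the most densely called window, wild-type ICI gave 14 peaks and wild-type tamoxifen 23, while mutant ICI gave 26 and mutant tamoxifen 23. Each vehicle library had 1 peak there. Around Fos the counts were 12 for wild-type ICI, 19 for wild-type tamoxifen, 23 for mutant ICI and 18 for mutant tamoxifen. Wild-type vehicle gave 2 Fos peaks and mutant vehicle 0. Every ligand library thus had at least 12 peaks in these windows, and no vehicle library had more than 2.

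Around Cdkn1a the ligand libraries were closer to one another, with 15 peaks for wild-type ICI, 20 for mutant ICI and 17 for tamoxifen in each genotype. Wild-type vehicle gave 1 peak and mutant vehicle 0. The Myc window was the sparsest, with 5 peaks for wild-type ICI, 10 for wild-type tamoxifen and 8 for each mutant ligand library. Its vehicle counts were 0 (wild type) and 1 (mutant).

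With either ligand, these windows were denser than the lists as a whole. Mean density of the ligand lists over chromosomes 1 to 19 and X ran from 1.00 peaks per 100 kb for wild-type ICI to 1.74 for mutant ICI. In the Vegfa window, the ligand libraries had from 6.45 to 12.0 peaks per 100 kb, or 6.42 to 7.65 times the mean of their own list. The multiples were 5.83 to 6.55 around Fos and 5.45 to 7.08 around Cdkn1a, and lower, at 2.23 to 3.43, around Myc. Vehicle densities rest on 0 to 2 peaks a window. Over the 4 windows they were 3.39 times the list mean in wild-type mice and 1.25 times in mutant mice, and 0 for mutant vehicle at Fos and Cdkn1a and for wild-type vehicle at Myc. With tiles as long as each window laid end to end over the genome, 0.247% held at least the 88 peaks of the Vegfa window and 0.490% at least the 74 of the Fos window. For Cdkn1a, with 70 peaks, the share was 0.704%, and for Myc, with 32 peaks, it was 10.9%. Gene-poor tiles are among these, and gene density was not taken into account.

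**Figure D2:**
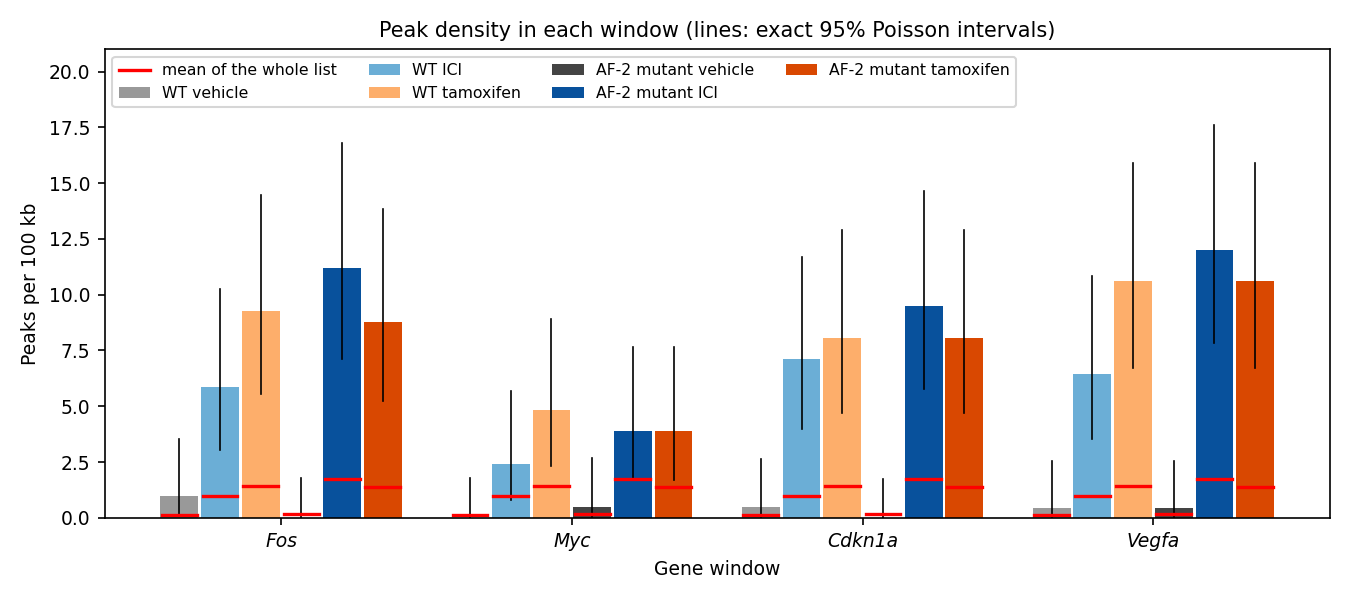
Peaks per 100 kb in each gene window, 1 bar per library, with exact 95% Poisson intervals as black lines and the mean density of the whole list as a red line. The ligand bars of Fos, Cdkn1a and Vegfa stand between 5.85 and 12.0, and those of Myc between 2.43 and 4.85.

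ICI and tamoxifen were compared at the same dose and time within each genotype. ICI is a steroid with a long side chain that blocks the receptor and promotes its loss, and tamoxifen is a nonsteroidal triphenylethylene with mixed agonist and antagonist action. In the wild type, ICI gave fewer peaks than tamoxifen in each of the 4 windows, at a summed ratio of 0.667 (0.449 to 0.982), beside 0.709 for the whole lists. In the mutant, the summed ratio was 1.17 (0.829 to 1.65), beside 1.25 for the whole lists. Both intervals contain the whole-list value. In single windows, the wild-type ratio ran from 0.500 at Myc (0.134 to 1.61) to 0.882 at Cdkn1a (0.410 to 1.88). The mutant ratio ran from 1.00 at Myc (0.327 to 3.06) to 1.28 at Fos (0.660 to 2.51). Every single-window interval includes 1, and these intervals do not show that the ligands act alike. They treat the lists as independent counts, although many regions were called in both. Wild-type regions with ICI and not tamoxifen, and the reverse, numbered 0 and 9 at Vegfa and 1 and 8 at Fos. They numbered 1 and 6 at Myc and 3 and 5 at Cdkn1a. In the mutant these numbers were 6 and 3 at Vegfa, 8 and 3 at Fos, 2 and 2 at Myc, and 4 and 1 at Cdkn1a. A ligand difference at a single gene was not tested.

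**Figure D3:**
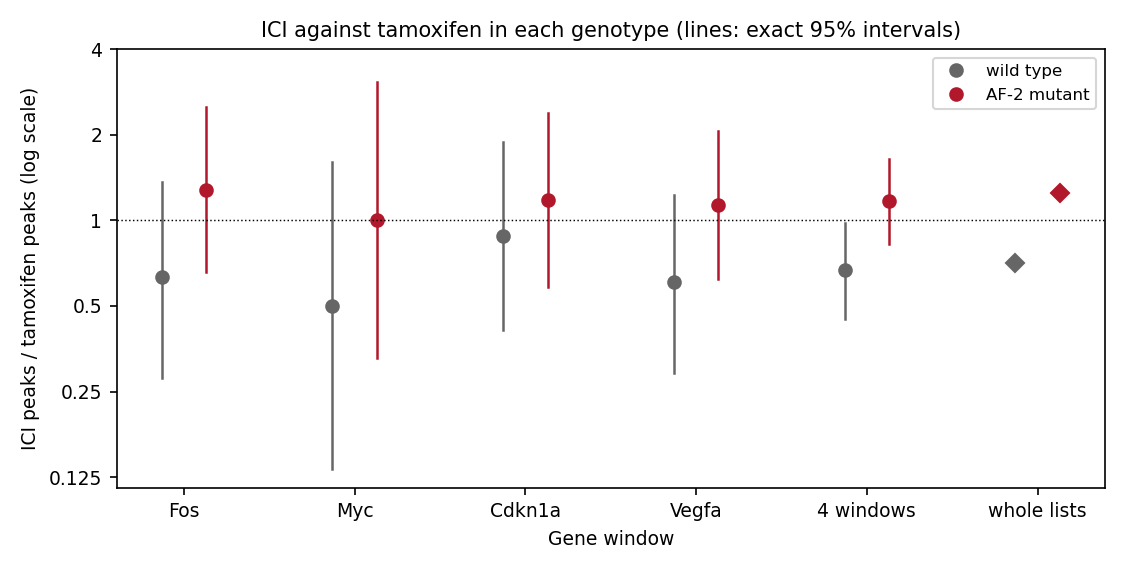
Ratio of ICI to tamoxifen peak numbers, on a log scale, in each gene window, in the 4 windows together and in the whole lists, for the wild type (grey) and the AF-2 mutant (red), with exact 95% intervals as lines (not drawn for the whole lists). The wild-type points lie between 0.500 and 0.882 and the mutant points between 1.00 and 1.28.

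Set against the wild type, mutant mice had 1.67 times as many peaks around these genes after ICI (1.15 to 2.47) and 0.957 times as many after tamoxifen (0.672 to 1.36). The whole lists gave 1.73 and 0.979. With ICI, the mutant count was the higher in all 4 windows, from 20 peaks against 15 at Cdkn1a to 23 against 12 at Fos. With tamoxifen the genotypes had equal counts at Cdkn1a and Vegfa and differed by 1 peak at Fos and 2 at Myc. Equal counts were not the same regions. Of the wild-type tamoxifen regions, 13 of 17 at Cdkn1a and 14 of 23 at Vegfa were called with tamoxifen in the mutant. The genome share was 64.2%. Vehicle gave 2 mutant peaks against 4 wild-type ones, a ratio of 0.500 (0.0452 to 3.49), beside 1.35 for the whole lists. That ratio was 1.00 without the Fos window and 0.250 without the Myc window. Both ligand intervals contain the whole-list value, and the vehicle counts are too small for a comparison.

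The libraries shared many of these regions. Of the 105 regions, 35 were called in all 4 ligand lists, or 33.3% (24.4 to 43.2), against 23.2% of all regions in the genome. A further 12 (11.4%, against 17.4% in the genome) were called in exactly 3 ligand lists, 24 (22.9%, against 22.4%) in 2 and 34 (32.4%, against 34.6%) in 1. None was called with vehicle alone, as 2.45% were in the genome. By genotype, 55 regions (52.4%, against 49.3%) were called with a ligand in both, 31 in the mutant alone (29.5%, against 29.0% in the genome) and 19 in the wild type alone (18.1%, against 19.2%). Of the regions with exactly 3 ligand lists, 10 lacked only wild-type ICI, the shortest ligand list, which is 9.52% of the regions against 11.7% in the genome. In regions with 1 peak in each ligand list and none with vehicle, 30 in all, the 4 midpoints spread over a median of 26 bp, against 29 bp in the genome.

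By library, 73.3% of the 105 regions were called with mutant ICI (70.3% in the genome), 65.7% with wild-type tamoxifen (57.3%), 62.9% with mutant tamoxifen (56.1%) and 43.8% with wild-type ICI (40.7%). Vehicle called 3.81% of them in the wild type (5.70% in the genome) and 1.90% in the mutant (7.72%). Mutant ICI was thus the most complete list around these genes and wild-type ICI the least complete of the ligand lists, as in the genome. The genome value for mutant vehicle lies above the 95% interval of 0.232 to 6.71, which rests on 2 regions.

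Regions called in 1 ligand list alone were 14 for mutant ICI (13.3%, against 12.9% in the genome), 12 for wild-type tamoxifen (11.4%, against 9.67%), 5 for mutant tamoxifen (4.76%, against 5.48%) and 3 for wild-type ICI (2.86%, against 6.49%). Both mutant ligands and no wild-type ligand marked 12 regions (11.4%, against 10.6%), and both wild-type ligands and no mutant ligand marked 4 (3.81%, against 3.03%). Tamoxifen in both genotypes without ICI marked 3 regions (2.86%, against 1.11%). These are the region at the edge of Fos described below, and chr15:61759966-61760186 and chr15:61869431-61869635 on either side of Myc, at 55.9 and 47.5 kb. ICI in both genotypes without tamoxifen marked 2 (1.90%, against 1.52%), chr12:86793281-86793492 at 20.6 kb before Fos and chr15:61911099-61911312 at 89.2 kb past Myc. Every one of these genome shares lies within the 95% interval of the share in the windows.

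**Figure D4:**
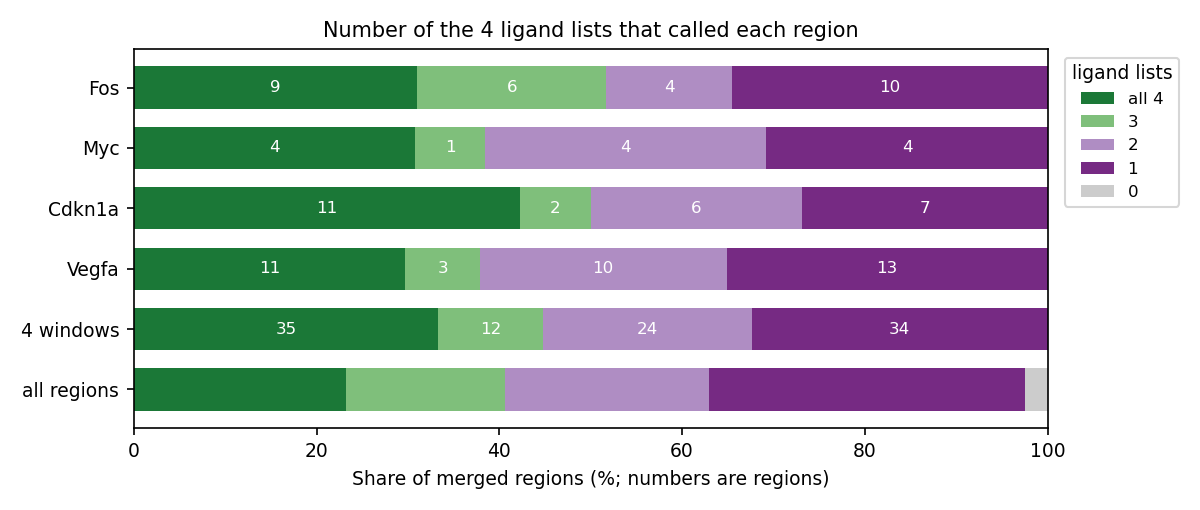
Share of merged regions, in percent, called in 4, 3, 2, 1 or 0 of the ligand lists, for each gene window, the 4 windows together and all regions of the genome; numbers in the bars count regions. Regions called in all 4 ligand lists number 9 at Fos, 4 at Myc, 11 at Cdkn1a and 11 at Vegfa.

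Around Fos, ERα regions crowded at the start of the gene. The gene span is taken as the window less 100 kb at each end, so its edges are rounded and positions are not resolved below about 1 kb. Fos is transcribed from the plus strand. Within 1.33 kb before the span and its first 0.346 kb lay 4 regions. Those at chr12:86812534-86812797 and chr12:86813432-86813657 were called in all 4 ligand lists. Between them, chr12:86813006-86813205 was called with mutant tamoxifen alone, and chr12:86814246-86814447, at the edge of the span, was called with tamoxifen in both genotypes and with ICI in neither. No vehicle library had a peak within 10 kb of Fos.

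Further out within 10 kb, chr12:86805401-86805651, 8.47 kb before the span, was called in both mutant ligand libraries and by no wild-type library. After the gene, chr12:86820323-86820522 was called with mutant ICI alone, and chr12:86826800-86827005, 7.90 kb past the span, in all 4 ligand lists. Of the 29 Fos regions, 17 lay less than 1 kb from a neighbour, the most of the 4 genes, against 2 of 13 at Myc, 8 of 26 at Cdkn1a and 6 of 37 at Vegfa. Neighbour pairs under 1 kb numbered 10 at Fos, 1 at Myc, 4 at Cdkn1a and 3 at Vegfa. The genome had 7815 such pairs among the 65118 regions counted for spacing. Ligand densities were 5.83 to 6.55 times the list mean at Fos and 6.42 to 7.65 times at Vegfa. Whether the spacing at Fos is closer than its density would give was not tested. A second region called with both mutant ligands and by no wild-type library, chr12:86873577-86873781, lay beside chr12:86873940-86874168, which was called in wild-type vehicle and in all 4 ligand lists, 55.1 kb past the gene. With gaps of up to 200 bp merged, these neighbours joined, and the former was no longer a region of the mutant alone. Fos then had 26 regions in place of 29. The remaining Fos region of wild-type vehicle, chr12:86715118-86715357, lay 98.8 kb before the gene and was called otherwise with mutant ICI alone.

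At Myc the gene itself held no region shared between libraries. Myc is transcribed from the plus strand, and its promoter is not in the RefSeq table used. The region chr15:61816566-61816765, 0.665 kb into the span, was called with mutant ICI alone, and chr15:61818786-61818985, at 2.89 kb, with wild-type tamoxifen alone. The closest region called in all 4 ligand lists, chr15:61823691-61823919, lay 1.80 kb past the gene. Before the gene, the nearest such region was chr15:61758856-61759091 at 57.0 kb, which was also the only Myc region called with vehicle, in the mutant. Only wild-type tamoxifen called chr15:61830398-61830597, 8.50 kb past the gene.

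On the far side of Myc, the next named gene in the RefSeq order is the long noncoding RNA gene Pvt1. Regions called in all 4 ligand lists lay there at chr15:61875226-61875445 and chr15:61881065-61881306, 53.3 and 59.2 kb past the gene. Between them, chr15:61880328-61880582 lacked only wild-type ICI. The single Myc region called with both mutant ligands and by no wild-type library was chr15:61728310-61728517, 87.6 kb before the gene, and no Myc region was called with both wild-type ligands alone.

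Cdkn1a had 1 region in the gene and no other within 10 kb of the gene span. That region, chr17:29231546-29231772, lay 4.66 kb into the span and was called in all 4 ligand lists and with no vehicle. Its distance from the downstream Cdkn1a start was not measured, since no mm9 annotation was used. The nearest regions were 10.7 kb before the span, at chr17:29216161-29216389, called in every ligand list except wild-type ICI, and 17.2 kb after it, at chr17:29255093-29255292, called with wild-type ICI alone. Wild-type ICI instead had a peak of its own at chr17:29215924-29216123, directly beside the first of these, without overlapping it. All 3 regions of the 4 windows that were called with wild-type ICI alone lay around Cdkn1a. This depends on the merging rule. With gaps of up to 200 bp merged, chr17:29215924-29216123 joined its neighbour and was no longer a region of wild-type ICI alone. Cdkn1a then had 25 regions in place of 26.

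Past Cdkn1a, towards Rab44 and Cpne5 in the RefSeq order, regions called in all 4 ligand lists numbered 7 of 15, beside 23.2% in the genome. Of these, chr17:29257780-29257987, 19.9 kb past the gene, was the nearest, and chr17:29289296-29289518, 51.4 kb past it, was also the single Cdkn1a region called with wild-type vehicle. Before the gene, towards the noncoding RNA gene Trp53cor1 and Srsf3, 3 of 10 regions were called in all 4 ligand lists, the nearest at chr17:29198545-29198765, 28.3 kb away. There the mutant alone had both ligands at chr17:29190880-29191086, chr17:29199156-29199393 and chr17:29210017-29210257. The wild type alone had both ligands at chr17:29332643-29332899, 94.8 kb past the gene.

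Vegfa, transcribed from the minus strand, had 3 regions in its span, and both mutant ligand libraries and wild-type tamoxifen called each of them. The region nearest to the start, chr17:46168812-46169037, lay 1.08 kb into the span and was called in all 4 ligand lists. So was chr17:46163381-46163591, 6.51 kb in. Between them, chr17:46165681-46165883 lacked only wild-type ICI, as did chr17:46174739-46174971 and chr17:46176756-46176957, 4.86 and 6.86 kb before the gene. Of the 5 regions within 10 kb of Vegfa, wild-type ICI called 2, near its genome share of 40.7%, and each of the other 3 ligand libraries called 5. As at the other genes, no vehicle library had a peak within 10 kb, and vehicle called 5.70% (wild type) and 7.72% (mutant) of regions in the genome.

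The sides of Vegfa are given with the genome shares beside them, since 68.5% of all regions were called with a wild-type ligand. On the side before the gene, towards Mrps18a and Rsph9, 17 of 22 regions were called with a wild-type ligand, 11 with ICI and 17 with tamoxifen. The mutant called 13 of these with ICI and 14 with tamoxifen. On the side past the gene, 3 of 12 regions were called with a wild-type ligand, 1 with ICI and 3 with tamoxifen, against 10 with mutant ICI and 6 with mutant tamoxifen. In the genome, these libraries called 40.7% (wild-type ICI), 57.3% (wild-type tamoxifen), 70.3% (mutant ICI) and 56.1% (mutant tamoxifen) of regions. The mutant alone had both ligands at chr17:46056891-46057091, chr17:46078989-46079196, chr17:46082037-46082351, chr17:46087484-46087695 and chr17:46141126-46141332 on this side. Before the gene it did so at chr17:46252294-46252494. The one region past the gene shared by all 4 ligand lists was chr17:46069650-46069868, 83.2 kb away. This split by side was noticed after the values were seen, and it was not tested.

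The wild type alone had both ligands at 3 Vegfa regions, chr17:46207111-46207325, chr17:46238967-46239167 and chr17:46253222-46253429, at 37.2, 69.1 and 83.3 kb before the gene. The last of these lay within 1 kb of the mutant region at chr17:46252294-46252494, without overlapping it. The nearest upstream region called in all 4 ligand lists was chr17:46190251-46190518, 20.4 kb before the gene, which was also the single Vegfa region of mutant vehicle. Wild-type vehicle called chr17:46223865-46224078, at 54.0 kb, which was again shared by all 4 ligand lists.

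Regions called with vehicle were mostly those called with every ligand. Of the 6 such regions around the 4 genes (5.71% of the 105, against 11.7% in the genome), 5 were called in all 4 ligand lists, against 39.2% of the regions called with vehicle in the genome. The one not in all 4 was the Fos region at 98.8 kb, called with mutant ICI. All 6 were thus called in at least 1 ligand list, against 79.1% in the genome. None of the 6 was called with vehicle in both genotypes, which in the genome was so for 1096 of 7643 regions. So few regions allow no comparison with the genome.

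Within a genotype, most ICI regions were also tamoxifen regions. In the wild type, 41 of the 46 ICI regions were called with tamoxifen, 89.1% (76.4 to 96.4), against 72.4% in the genome, and 41 of the 69 tamoxifen regions with ICI, 59.4% (46.9 to 71.1), against 51.3%. At Vegfa this held for all 14 wild-type ICI regions. In the mutant, 57 of the 77 ICI regions were called with tamoxifen, 74.0% (62.8 to 83.4), against 68.3%, and 57 of the 66 tamoxifen regions with ICI, 86.4% (75.7 to 93.6), against 85.7%. Between genotypes, 38 of the 46 wild-type ICI regions were mutant ICI regions (82.6%, against 73.1%), which is 49.4% of the 77 mutant ICI regions (against 42.2%), and 49 of the 69 wild-type tamoxifen regions were mutant tamoxifen regions (71.0%, against 64.2%), or 74.2% of the 66 mutant ones (against 65.6%). Such shares depend on the length of the lists, and regions of 1 window share their surroundings, so they are not independent.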

How the data were processed

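The authors deposited 1 peak list per library, holding positions only. Every peak was 200 bp wide, and no height, score or p-value is given. The tools named, without roles, are HOMER 4.10.3, Bowtie2 2.1.0, bedtools 2.24.0, Picard and SAMtools, and the build is mm9, per the submitters' processing notes. No source used here gives the peak threshold or the read depth. The threshold and the depth both set how many peaks a list holds, and a peak missing from a list can lie just under the threshold.

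Peaks were counted, merged and compared with pandas 2.3.3, numpy 2.4.6 and scipy 1.17.1 in Python 3.11.15. Merging was tested on 2000 simulated regions, with 0 wrong, and bedtools 2.31.1 gave the same 65146 regions. Intervals are exact 95% Poisson or binomial (Clopper-Pearson) ones and cover counting error only. No test was run, since each group has 1 library. The genes, windows and lists were chosen with earlier results of these data known. Regions named are those called with vehicle, those within 10 kb of a gene or nearest to its start, the nearest ones in all 4 ligand lists on each side, and those with both ligands of 1 genotype only. The others named were chosen after their values were seen. Alternatives were the merging rule, the window size, the placing of peaks, the tiles counted, and leaving out a window or the wild-type ICI list. No mm9 genome or annotation was used here. Gene order came from the RefSeq table of GRCm38.p6, promoters from its promoter table, which matched 3 of the 4 genes, and the strand of Myc from general knowledge.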

Additional observations from a re-analysis of the deposited data

Results flagged for a closer look

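By peak counts, the order of the ligands was opposite in the genotypes. Over the 4 windows, the ratio of ICI to tamoxifen peaks was 0.667 (0.449 to 0.982) in the wild type and 1.17 (0.829 to 1.65) in the AF-2 mutant. The same order was seen at Fos (0.632 and 1.28), at Cdkn1a (0.882 and 1.18) and at Vegfa (0.609 and 1.13), while Myc gave equal mutant counts. The summed mutant interval includes 1, as does every single-window interval, so these intervals do not resolve the order in the mutant or at a single gene. They treat the lists as independent counts, although the lists share many regions. The difference between genotypes was not tested, because each group is 1 library, and the whole lists have the same order.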

How the results depend on the processing

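Of 114 values recomputed under an alternative, 102 stayed within 1.5 times a reported count or within the 95% interval of a reported share or ratio, 12 did not, and 0 reversed. Those intervals are wide for ratios to vehicle. Without the Myc window, the mutant ratios to vehicle were 69.0 for ICI and 58.0 for tamoxifen, and the mutant to wild-type vehicle ratio was 0.250. Without the Fos window these values were 27.0, 24.0 and 1.00. Placing peaks by any overlap, merging over gaps of up to 200 bp and requiring an overlap of 100 bp kept all values recomputed under them within those limits. With about 50 kb on each side, density around Myc was 0.943 peaks per 100 kb for wild-type ICI and 1.89 for each mutant ligand. Wild-type vehicle then had 0 peaks per 100 kb around Fos, Cdkn1a and Vegfa, as did mutant vehicle around Myc, and mutant vehicle around Vegfa had 0.855. The ratios to wild-type vehicle could not be given there. Without the wild-type ICI list, 44.1% of the 102 regions left were called in all remaining ligand lists. Of all 105 regions, 42.9% were called in those lists, against 35.0% of all regions in the genome. Counting tiles with a peak in any list, the shares were 0.673% for Fos, 14.9% for Myc and 0.961% for Cdkn1a. No analysis paired by animal or replicate was possible because each group has 1 library. Calls were compared region by region between lists, without a test. Without depths or peak heights, weak binding and absent binding cannot be told apart.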
